A study of Saccharomyces cerevisiae with 8 samples.

Results

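Guanosines and uridines with a mutation signal under dimethyl sulfate (DMS) were examined in the ribosomal RNA (rRNA) of the yeast Saccharomyces cerevisiae. They were chosen by their measured rates. A nucleotide was taken when its base was G or U, its mean mutation rate over the 7 libraries with DMS was at least 0.2%, and its rate in the library without DMS was below 0.2%. This gave 224 nucleotides, 147 guanosines and 77 uridines, of 5475 in the 4 rRNAs and of 2946 with the base G or U. The mutation rate is the share of sequenced cDNAs with a mismatch at that nucleotide.

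In the study, purified 80S ribosomes were incubated with a drug in the test tube, then treated with 90 mM DMS for 8 min, to find where the drug binds. The 8 conditions had 1 library each. They were ribosomes without DMS, ribosomes with DMS and no addition, with DMS plus dimethyl sulfoxide (DMSO), a solvent, with DMS and agelastatin A (AglA) at 0.5 or 1.0 mM, and with DMS and cycloheximide (CHX) at 10, 50 or 1000 µM. AglA is a sponge alkaloid and CHX an inhibitor of elongation that binds the E site of the large subunit. The strain is not given in the sources used here, and neither is the solvent of CHX, nor whether the libraries came from separate ribosome preparations. With 1 library per condition no difference has a replicate check, no p-value is given, and doses are not replicates. The files carry no read depth, so no counting interval can be given for a rate.

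DMS methylates N1 of adenosine and N3 of cytidine, atoms of the base-pairing edge, when no pair or ligand covers them. Its main target in guanosine is N7, which lies outside that edge and is not expected to block pairing, while N1 of guanosine and N3 of uridine carry a proton at neutral pH and react little. A group II intron reverse transcriptase, the enzyme used here, tends to read through a methylated base and leave a mismatch, which is how A and C are scored in such experiments.

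The sequences below surround the nucleotides on which the results turn. The first 5 hold the uridines and guanosines of highest rate, the next holds one beside a very reactive adenosine, the next 3 hold runs of several, and the last 2 lie in the peptidyl transferase centre. Each is 21 nucleotides of rRNA written 5′ to 3′, with the named nucleotide in the middle, and capitals mark every one of the 224 nucleotides that falls inside. Letters come from the deposited table. Coordinates are those of the first annotated rDNA copy on chromosome XII (sacCer3, the R64 assembly), all on the minus strand here, and the rates do not separate rDNA copies.
18S U558, chrXII:457165-457185: ggagggcaagUcuggugccag
25S U3275, chrXII:451897-451917: cgaauugcaaUgUcauuuugc
25S G3369, chrXII:451803-451823: acgaucugcuGagauuaagcc
25S G800, chrXII:454372-454392: uagcuguuggGacccgaaaga
25S G1521, chrXII:453651-453671: uuggacguggGuuagucgauc
25S U762, chrXII:454410-454430: ccgauccugaUgucuucggau
18S U280, chrXII:457443-457463: cauGgccUUGUGcuggcGaug
18S U494, chrXII:457229-457249: cagggcccaUUcgGGucuugu
25S U2571, chrXII:452601-452621: aaggucccaUUcgGGGcugau
25S U2875, chrXII:452297-452317: uucuucgaugUcggcucuucc
25S U2954, chrXII:452218-452238: ugagcuggguUuagaccgucg

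A larger share of guanosines than of uridines was taken. Of 1495 guanosines 147 were taken (9.83%), and of 1451 uridines 77 (5.31%), so guanosines made up 65.6% of the set. A further 48 guanosines and 14 uridines reached the mean bound but had at least 0.2% without DMS and were left out. The remaining 2660 lay below the mean bound. Just inside it were 18S U680, 25S G1148 and 25S U3155 (each 0.203%), and just outside 25S G3263 (0.1999%), 25S U1351 (0.1998%) and 25S G1409 (0.1997%). On the bound without DMS, 25S U898 (0.199%), 25S G1983 (0.197%) and 18S G648 (0.195%) were just inside, and 18S G562 (0.2002%), 25S G162 (0.202%) and 5.8S G31 (0.203%) just outside. These counts and values describe the choice and support no finding.

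Most of the rates were low. The mean rate over the 7 DMS libraries had a median of 0.268% in the guanosines (range 0.203% to 1.29%) and 0.277% in the uridines (0.203% to 2.32%). For comparison, the 514 adenosines and cytidines with a mean of at least 0.5% had a median rate of 1.74% with DMS and no addition. A mean of at least 0.5% was found in 20 guanosines and 7 uridines, and of at least 1% in 3 and 2, while 87 guanosines and 44 uridines lay below 0.3%. In all 7 DMS libraries 103 guanosines and 58 uridines were at 0.2% or above.

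The 2 bases differed in their level without DMS, which the rule bounds only from above. Its median was 0.0699% in the guanosines and 0.0478% in the uridines, and 40 guanosines (27.2%) but 3 uridines (3.90%) had at least 0.1%. The ratio of the mean DMS rate to the rate without DMS accordingly had a median of 4.48 in guanosines and 6.40 in uridines. It was below 2 in 30 guanosines and 3 uridines, and at least 10 in 16 and 10. Over the 7 DMS libraries the coefficient of variation had a median of 11.4% in guanosines and 9.85% in uridines.

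The highest rate belonged to uridine 558 of 18S rRNA, in the 5′ domain of the small subunit. It had 0.0539% without DMS, 2.57% with DMS and no addition, 2.28% with DMSO, 2.21% and 2.52% with AglA at 0.5 and 1.0 mM, and 2.16%, 2.22% and 2.28% with CHX at 10, 50 and 1000 µM. The mean of the DMS libraries was 43.1 times the level without DMS, and none of them was near that level. Its neighbours G557 and C559 had mean rates of 0.0470% and 0.0695%.

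25S U3275, in domain VI, was the other uridine above 1%, with 0.0567% without DMS, 1.97% with no addition, 1.56% with DMSO, 1.53% and 1.47% with AglA, and 1.69%, 1.91% and 1.63% with CHX in rising order of dose. The DMS libraries without drug span nearly the range of those with drug. Next in order came 18S U280 (mean 0.756%), 25S U762 (0.728%), 18S U808 (0.557%), 25S U874 (0.533%), 25S U3319 (0.520%), 18S U1710 (0.488%), 25S U1348 (0.460%) and 18S U216 (0.417%).

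Among guanosines, 25S G3369 in domain VI led with 0.0436% without DMS, 1.40% with no addition, 1.20% with DMSO, 1.22% and 1.40% with AglA, and 1.03%, 1.31% and 1.43% with CHX. 25S G800, in domain II, had 0.0537% without DMS and 0.990% to 1.16% in the 7 DMS libraries. 25S G1521, in domain III, had 0.0823% and 0.964% to 1.10%. These 3 stayed well apart from their level without DMS in every DMS library. The next were 25S G1421 (0.930%), 18S G1521 (0.834%), 5.8S G116 (0.767%), 25S G1845 (0.739%), 18S G287 (0.713%), 25S G437 (0.685%) and 25S G2206 (0.626%).

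**Figure D1:**
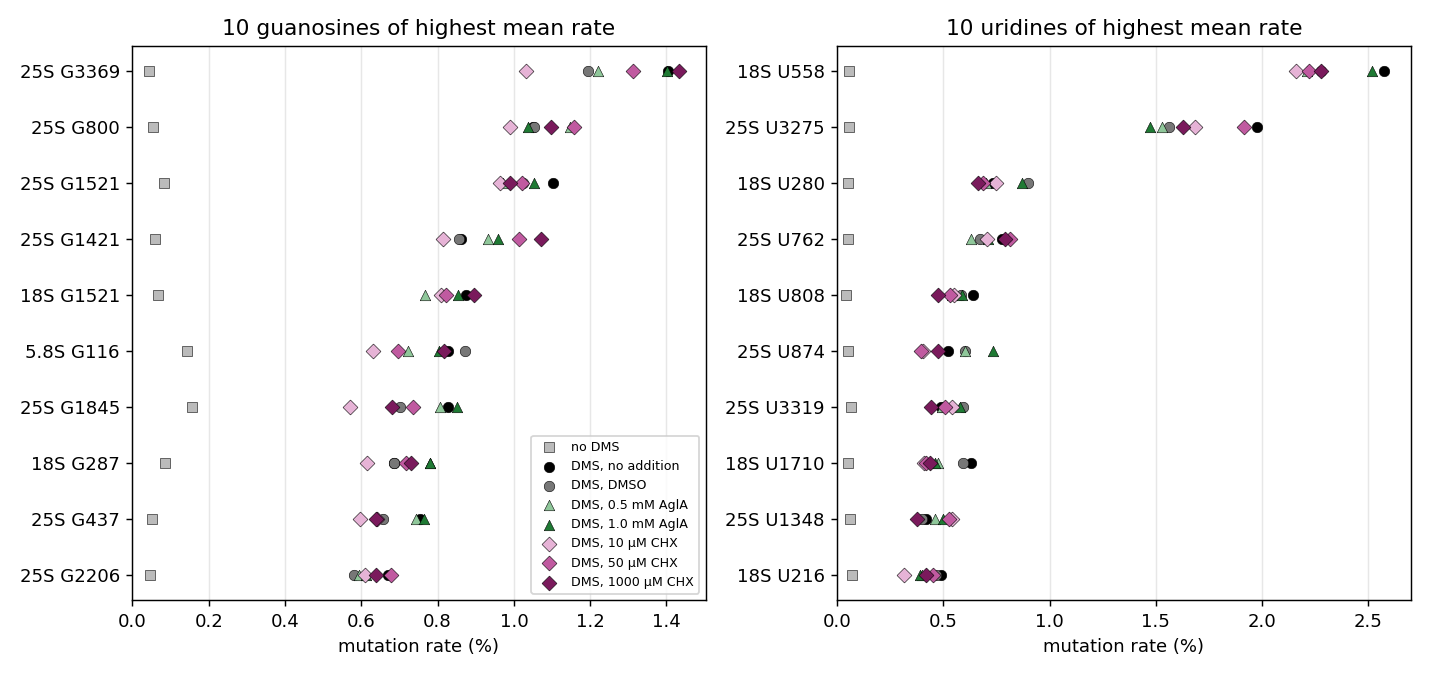
Mutation rate in percent (linear axis from 0) of the 10 guanosines (left) and 10 uridines (right) of highest mean rate, with 1 point per library and 1 library per condition. The grey squares, without DMS, lie below every DMS point of the same nucleotide, and 18S U558 and 25S U3275 stand apart from the other uridines.

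By rRNA, 25S rRNA held 145 of the 224 (99 G and 46 U), 18S held 74 (45 G and 29 U), 5.8S held 4 and 5S held 1. As a share of the G and U of its molecule, 25S had 7.90%, 18S 7.64%, 5.8S 4.94% and 5S 1.64%. The shares in the long rRNAs were close to each other and to the 7.60% over all 4. In 5.8S the nucleotides were G107, G116, U81 and U86, and in 5S, the small RNA of the central protuberance, it was G88.

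5.8S G116 had 0.143% without DMS, 0.827% with no addition, 0.871% with DMSO, 0.722% and 0.803% with AglA, and 0.630%, 0.695% and 0.818% with CHX. 5.8S G107 had 0.170% without DMS and 0.216% to 0.309% with it, so its highest DMS library was under 2 times its level without DMS. For 5.8S U81 the values were 0.0407% and 0.186% to 0.257%, and for 5.8S U86 0.0720% and 0.186% to 0.233%. 5S G88 had 0.0760% without DMS and 0.453% to 0.542% with it.

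Within the long rRNAs the nucleotides were spread over every domain. The approximate domain limits used here were set from the known layout of the molecules. The highest share of G and U was in domain VI of 25S, 27 of 223 (12.1%), followed by domain IV, which faces the small subunit, with 25 of 261 (9.58%), and domain I with 33 of 354 (9.32%). In domain V the L1 stalk had 11 of 129 (8.53%), the stretch of the central protuberance and E site 3 of 105 (2.86%), and that of the peptidyl transferase centre and A loop 5 of 111 (4.50%). In 18S the shares were 7.96% in the 5′ domain, 8.03% in the central domain, 6.75% in the head and 7.69% in helix 44 and the 3′ end.

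By base, the share ranged over these stretches from 3.51% to 14.0% of the guanosines and from 1.89% to 10.3% of the uridines, with domain VI highest for both. The lowest guanosine shares were in domain V, 3.51% in the stretch of the central protuberance and E site, where uridines had 2.08%, and 3.92% in that of the peptidyl transferase centre and A loop, where uridines had 5%. The stalk base of domain II had 1.89% of its uridines but 10.2% of its guanosines, domain III had 1.92% and 8.87%, and helix 44 with the 3′ end of 18S had 2% and 13.0%. The uridine shares of these last 3 stretches rest on 2, 2 and 1 nucleotides.

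**Figure D2:**
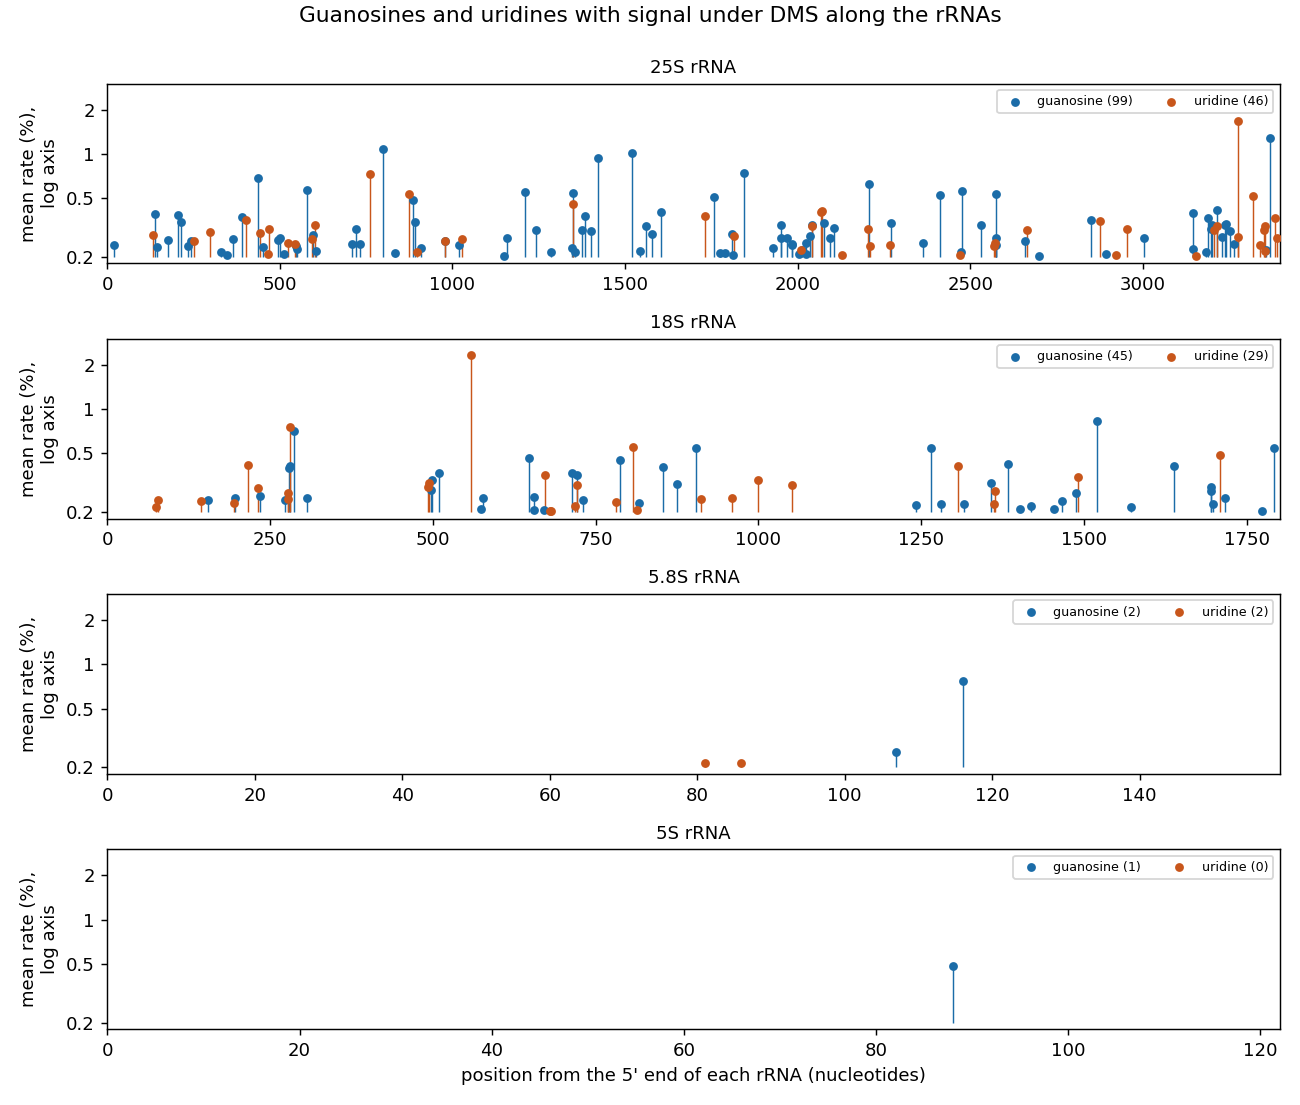
Mean mutation rate over the 7 DMS libraries (percent, log axis starting at the bound of the rule) of each of the 224 nucleotides by its position from the 5′ end of each rRNA, guanosines in blue and uridines in orange, with their number in the legend. They occur along the whole of 25S and 18S, with 4 in 5.8S and 1 in 5S.

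Many stood in runs. With a gap of at most 3 nucleotides between neighbours, 36 runs held 89 of the 224, 135 stood alone, and 11 runs held 3 or more. Next to another of the 224 stood 47 (21.0%), against 179 of the 2660 other G and U (6.73%). Membership was the choice by rate, so this clustering is a description of it.

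The 2 longest runs had 5 nucleotides. One was 18S U277, U278, G279, U280 and G281, all adjacent, in the 5′ domain. U280 was the highest, with 0.0519% without DMS, 0.732% with no addition, 0.898% with DMSO, 0.700% and 0.869% with AglA, and 0.745%, 0.688% and 0.662% with CHX. G279 and G281 on either side had mean rates of 0.399% and 0.412%, U278 0.268%, and U277 0.247% against 0.140% without DMS.

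The other was 25S U2570, U2571, G2574, G2575 and G2576, in the L1 stalk. It shares 10 consecutive letters with a run of 4 in 18S, U493, U494, G497 and G498, as the printed sequences show: cccaUUcgGG in both. Of 5422 distinct stretches of 10 nucleotides in the rRNAs, 17 occurred more than once, and among them this was the only one with at least 3 of the 224 at each place. Of the repeated stretches of 8 and 9 letters, 250 and 65, those with 3 at each place were 2 and 2, all inside it, and of the 4 with 11 letters none had 3. It was looked for after the values had been seen.

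In both copies the same 4 of the 10 letters were in the set. The adenosine before the uridines, place 4, had a mean rate of 4.85% in 18S (A492) and 6.82% in 25S (A2569), and the cytidine after them, place 7, 3.35% (C495) and 2.57% (C2572). The uridines had 0.294% and 0.313% in 18S, and 0.235% and 0.250% in 25S. The guanosines at the end had 0.281% and 0.332%, and 0.268% and 0.530%. The guanosine at place 8 lay just under the bound in both, with 0.196% (G496) and 0.179% (G2573), while the 3 cytidines at the start had 0.0488% to 0.151%.

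The question of whether the signal of G and U goes with reactive neighbours was asked of the directly adjacent A and C, whose rates the rule did not use. A reactive neighbour was an adenosine or cytidine with a mean of at least 0.5%. Of the 77 uridines 27 had one (35.1%, 95% Wilson interval 25.3% to 46.2%), against 192 of 1360 other uridines (14.1%, 12.4% to 16.1%). Of the 147 guanosines 35 had one (23.8%, 17.6% to 31.3%), against 227 of 1300 other guanosines (17.5%, 15.5% to 19.6%). The intervals treat nucleotides as independent, which neighbours in 1 molecule are not, so they are a description and no test. They overlap for guanosines and not for uridines. Over both bases 62 of 224 (27.7%) had a reactive neighbour and 162 had none. The 0.5% bound was set on the mean alone. Of the 514 A and C that met it, 7 had a higher rate without DMS than with DMS and no addition. Their rates without DMS reached 87.6%.

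Having an A or C next door at all was about as frequent among the 224 (71.4%) as among the other G and U (69.1%). Of the A and C neighbours themselves, 47.0% were reactive beside the uridines against 17.0% beside other uridines, and 26.9% against 20.9% for guanosines. By side, among uridines, 18 had the reactive base on the 5′ side and 13 on the 3′ side, and among guanosines the numbers were 14 and 25.

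The most reactive neighbour was A761 of 25S, at 29.1%, directly 5′ of U762. U762 itself had 0.0480% without DMS, 0.775% with no addition, 0.671% with DMSO, 0.629% and 0.711% with AglA, and 0.704%, 0.815% and 0.790% with CHX. Other strong pairs, selected for the neighbour's rate, were A213 (16.8%) after 25S G212 (0.343%) and C3181 (10.5%) before 25S G3182 (0.216%). High rates were also found without such a neighbour: it was present for 3 of the 10 highest guanosines (G1845, G437 and G2206 of 25S) and 3 of the 10 highest uridines (25S U762, 18S U808 and 18S U216), and absent for the 5 nucleotides above 1%.

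**Figure D3:**
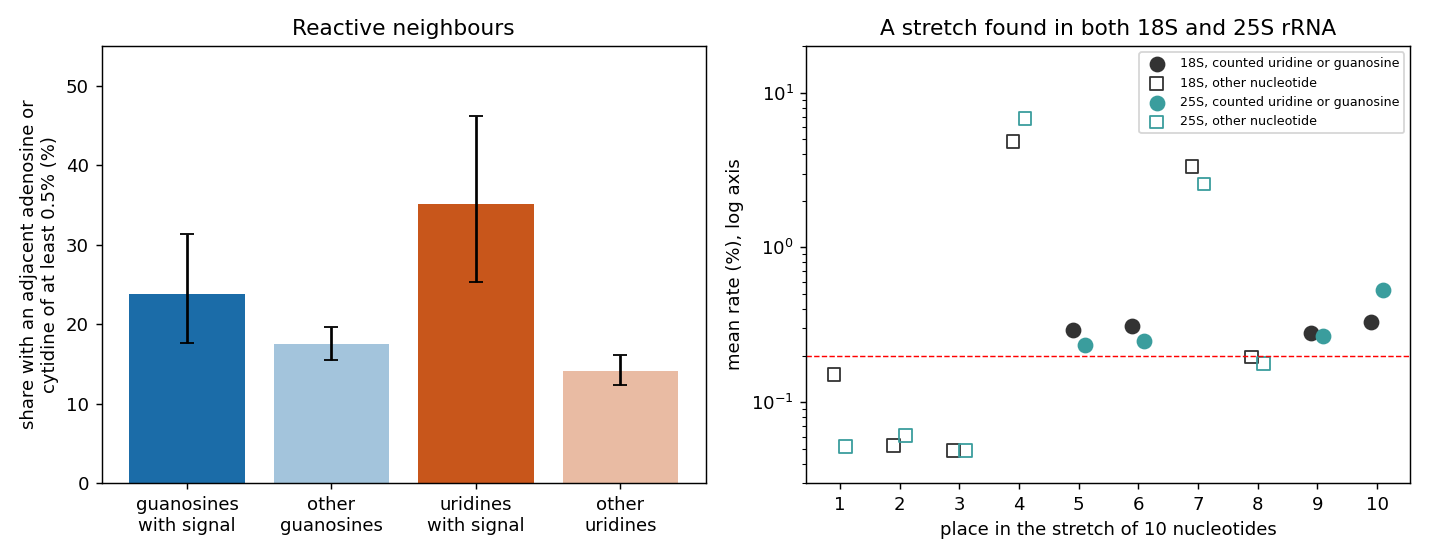
Left, share of nucleotides with a directly adjacent adenosine or cytidine of at least 0.5% mean rate (percent, bars from 0, error bars 95% Wilson intervals): 23.8% of the 147 guanosines and 35.1% of the 77 uridines with signal, against 17.5% and 14.1% of the others. The error bars treat nucleotides as independent. Right, mean rate over the 7 DMS libraries (percent, log axis) at each place of the 10-nucleotide stretch shared by 18S and 25S, where places 5, 6, 9 and 10 lie above the dashed 0.2% line as filled circles in both and the peaks at places 4 and 7 are the adenosine and cytidine.

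The letters around the guanosines differed from those around other guanosines. A cytidine stood directly 5′ of 48 of the 147 (32.7%) against 14.8% of the other guanosines, and a uridine of 25 (17.0%) against 29.6%. Around the uridines the clearest contrast was a guanosine on the 3′ side, in 28 of 77 (36.4%) against 27.9%. In the tetranucleotides UUCG and CUUG, read on the rRNA strand and picked after the members had been seen, at least 1 of the 224 fell in 5 of 15 (33.3%) and 9 of 42 occurrences (21.4%), against 14.3% of all windows of 4. The 2 motifs cannot share letters with each other, and a match is only a description. Every letter of each motif but the C is G or U. The windows of 4 were not matched for base, so these shares are not like for like.

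Natural modifications and functional sites were compared from lists of positions written from memory and checked only for the base. Of 45 listed pseudouridines, uridines isomerised by guide RNA machinery, 3 were in the set (6.67%): 18S U999, 25S U2129 and 25S U2923. This was near the share of all uridines (5.31%) and of all G and U (7.60%). 18S U999 had 0.0814% without DMS and 0.269% to 0.374% with it, whereas 25S U2129 had 0.173% without DMS and 0.159% to 0.237% with it, so its level without DMS lies inside that range. Of 26 listed G and U with a methylated ribose, 17 had at least 0.2% without DMS. The rule left out those 17, but only 62 of all 2946 G and U, so shares taken into the set are not like for like. In the set were 2 (7.69%, against 7.60% of all G and U). They were 18S G1572 (0.180% without DMS and 0.188% to 0.246% with) and 25S U898 (0.199% and 0.180% to 0.241%). None of the 4 listed nucleotides with a methylated base was in the set, since all 4 had at least 0.2% without DMS.

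The stretch listed for the helix 69 hairpin of 25S, which bridges to the small subunit, had 2 of its 14 G and U in the set (14.3%). The limits of that stretch are not exact, so these 2 are not placed in the hairpin itself. U2268 had 0.0269% without DMS, 0.264% with no addition, 0.245% with DMSO, 0.219% and 0.230% with AglA, and 0.256%, 0.233% and 0.232% with CHX. G2272 had 0.0367% without DMS and 0.291% to 0.416% with it. In the decoding centre 1 of 6 was in the set, 18S G577, the counterpart of G530 of Escherichia coli, which contacts the codon and anticodon pair; it had 0.138% without DMS and 0.204% to 0.338% with it. The sarcin-ricin loop had none of 10 and the E-site pocket of CHX none of 4. The P loop had none of 2, and 1 of these had at least 0.2% without DMS. Beside the 7.60% over all G and U, these lists are too short to show a difference.

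Drug effects were read on a log2 scale after adding 0.1 percentage points to each rate. Each library was centred on its median over the 514 reactive A and C, since those medians differed between libraries (1.74% with no addition and 1.31% with 10 µM CHX). A nucleotide counted as changed with a drug only when it was at least 2-fold higher or lower than each library without drug, DMSO and no addition. The added constant shrinks changes at these low rates: a halving gives a median of -0.67 in place of -1, and a fall to the rate without DMS would pass 2-fold for 168 of the 224.

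No guanosine or uridine of the set changed 2-fold with either drug. With AglA the count was 0 of 224 at 0.5 and at 1.0 mM, against a background of 0.0822% (1 of 1216 nucleotides of any base with a mean of at least 0.2%) at each dose. With CHX it was 0 of 224 at 10, 50 and 1000 µM, again against 0.0822% (1 of 1216) at each. At 1 of 1216 the background would give less than 1 among 224, so the absence does not set the guanosines and uridines apart. The nucleotide behind the background was a cytidine, 25S C2821 with AglA and 25S C2764 with CHX. Between DMSO and no addition 0 of 224 passed (background 0.164%, 2 of 1216), and between 1.0 mM AglA and 1000 µM CHX 0 of 224 passed (background 0.329%, 4 of 1216).

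Next to the 2 protected cytidines there was no G or U with signal. Within 5 nucleotides of C2821, 6 G and U had mean rates of 0.0436% to 0.137%, and within 5 of C2764, 6 had 0.0339% to 0.0587%. Beside a share of 7.60% over all G and U, none among so few does not set these places apart. C2821 itself, in the peptidyl transferase centre, went from 5.68% with no addition and 5.87% with DMSO to 0.180% and 0.221% with AglA.

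In the peptidyl transferase centre, where peptide bonds are made, 2 of 8 listed G and U were in the set. They were U2875 and U2954, the counterparts of U2506 and U2585 of Escherichia coli. A list of 8 is too short to set beside the 7.60% over all G and U. U2875 had 0.0305% without DMS, 0.304% with no addition, 0.336% with DMSO, 0.481% and 0.525% with AglA at 0.5 and 1.0 mM, and 0.311%, 0.247% and 0.239% with CHX at 10, 50 and 1000 µM. Both AglA libraries lay above all 5 other DMS libraries, and those with 50 and 1000 µM CHX below all other DMS libraries. The centred log2 ratio to the mean of DMSO and no addition was 0.57 at 0.5 mM AglA and 0.66 at 1.0 mM, the highest of all 1216 nucleotides at either dose, and remained under 2-fold.

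Without centring those ratios were 0.47 and 0.58. With a larger constant of 1 percentage point they were 0.23 and 0.26, and with one of 0.01 percentage points 0.68 and 0.79. With CHX the centred ratios of U2875 were 0.32, -0.12 and -0.08, and 1.0 mM AglA exceeded 1000 µM CHX by 0.73, the highest of the 224. U2875 was picked out after its values were seen, and each of its values rests on 1 library. For scale, the centred log2 ratio of DMSO to no addition ran from -0.64 (25S G176) to 0.49 (25S U2067) among the 224.

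U2954 did not share that pattern, with 0.0278% without DMS, 0.311% with no addition, 0.367% with DMSO, 0.322% and 0.313% with AglA, and 0.267%, 0.296% and 0.273% with CHX. Its AglA libraries lay between the 2 without drug. U2923, of the A loop, which binds the end of the aminoacyl-tRNA, had 0.0589% without DMS, 0.239% with no addition, 0.244% with DMSO, 0.170% and 0.187% with AglA, and 0.192%, 0.220% and 0.183% with CHX. All 5 drug libraries of U2923 were below both without drug, but its centred ratios were -0.24 and -0.17 with AglA and 0.12, 0.06 and -0.04 with CHX in rising order of dose, so that 10 and 50 µM CHX were not lower on that scale.

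**Figure D4:**
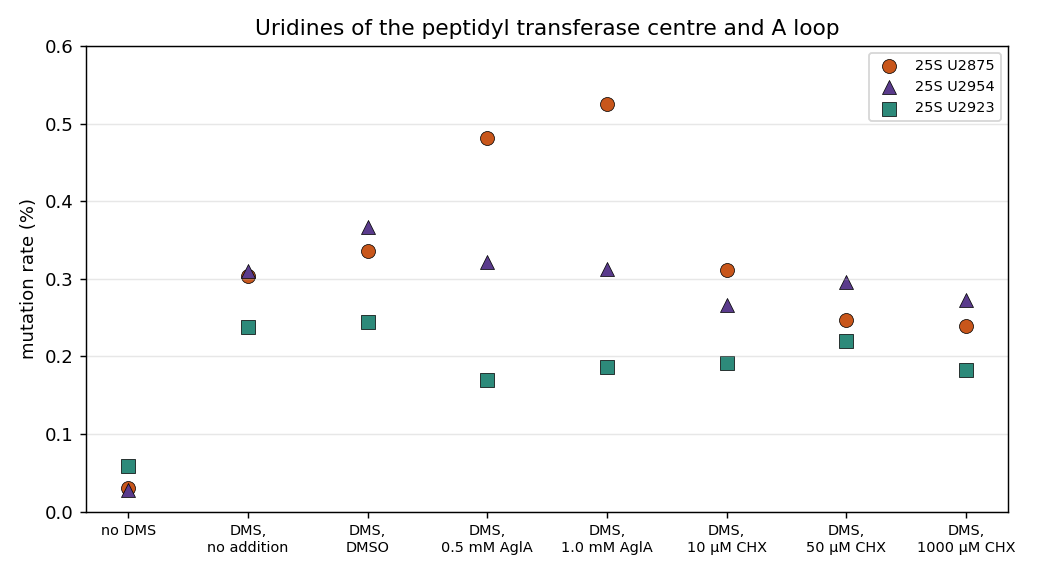
Mutation rate in percent (linear axis from 0) of 25S U2875, U2954 and U2923 in each library, with 1 point per library. Of the 3, only U2875 is higher in both AglA libraries, 0.481% and 0.525%, than in both libraries without drug, 0.304% and 0.336%.

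With CHX the highest ratio of the 224 was that of 25S U1348 in the stalk base, which had 0.0605% without DMS, 0.420% with no addition, 0.398% with DMSO, 0.458% and 0.496% with AglA, and 0.542%, 0.526% and 0.377% with 10, 50 and 1000 µM CHX. Its centred ratio was 0.68 at 10 µM and 0.45 at 50 µM, the highest of the 224 in both. Among the 1216 nucleotides U1348 was 3rd highest at 10 µM and 5th at 50 µM. Its rate at the top dose was below both libraries without drug. At a 1.5-fold limit on the centred scale, U1348 was the 1 nucleotide of the 224 past it with 10 µM CHX. Its deposited rate there, 0.542%, is below 1.5 times 0.420% or 0.398%, so it passed only with the centring. U2875 was the 1 past it between 1.0 mM AglA and 1000 µM CHX. The background at this limit was 0.411% (5 of 1216) and 1.56% (19 of 1216), so 1 of 224 (0.446%) was near it in the first comparison and below it in the second. With AglA at 0.5 and 1.0 mM none of the 224 passed 1.5-fold (background 0.0822% and 0.164%).

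One of the nucleotides lower with both drugs was 18S U1710, in helix 44. It had 0.0501% without DMS, 0.630% with no addition, 0.592% with DMSO, 0.474% and 0.459% with AglA, and 0.406%, 0.418% and 0.437% with CHX, so that the groups do not overlap. Its centred ratio was -0.27 at 1.0 mM AglA, the lowest of the 224 there. 25S G2850, close to the peptidyl transferase centre in sequence, had 0.422% with no addition, 0.397% with DMSO, 0.443% and 0.350% with AglA, and 0.261%, 0.340% and 0.260% with CHX. 25S G1421, one of the highest guanosines, had 0.861% and 0.857% without drug, 0.932% and 0.959% with AglA and 0.814%, 1.01% and 1.07% with CHX, and its ratio of 0.52 at 1000 µM CHX was shared with 25S G143 as the highest of the 224.

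Counted as the deposited rates stand, without centring, every AglA library was above both libraries without drug for 31 of the 224 (background 13.8%, the set 13.8%), and below both for 28 (12.5%, background 25.7%). Every CHX library was above both for 4 (1.79%, background 1.23%) and below both for 73 (32.6%, background 50%). The background also holds the reactive A and C, and for the higher direction the set lay near it. With centring the counts were 80 higher and 12 lower with AglA, and 96 higher and 3 lower with CHX, where the background shares were 36.6%, 10.9%, 36.5% and 4.19%.

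The uncentred medians give the sizes. Against DMSO, the median log2 ratio of the 224 was -0.09, -0.04 and -0.04 with 10, 50 and 1000 µM CHX. That of the 514 reactive A and C was -0.31, -0.14 and -0.20, and that of 354 A and C with rates as low as theirs (0.2% to 0.5%) was -0.15, -0.04 and -0.07. The A and C of matching rate were thus nearer to the guanosines and uridines than the reactive ones were.

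**Figure D5:**
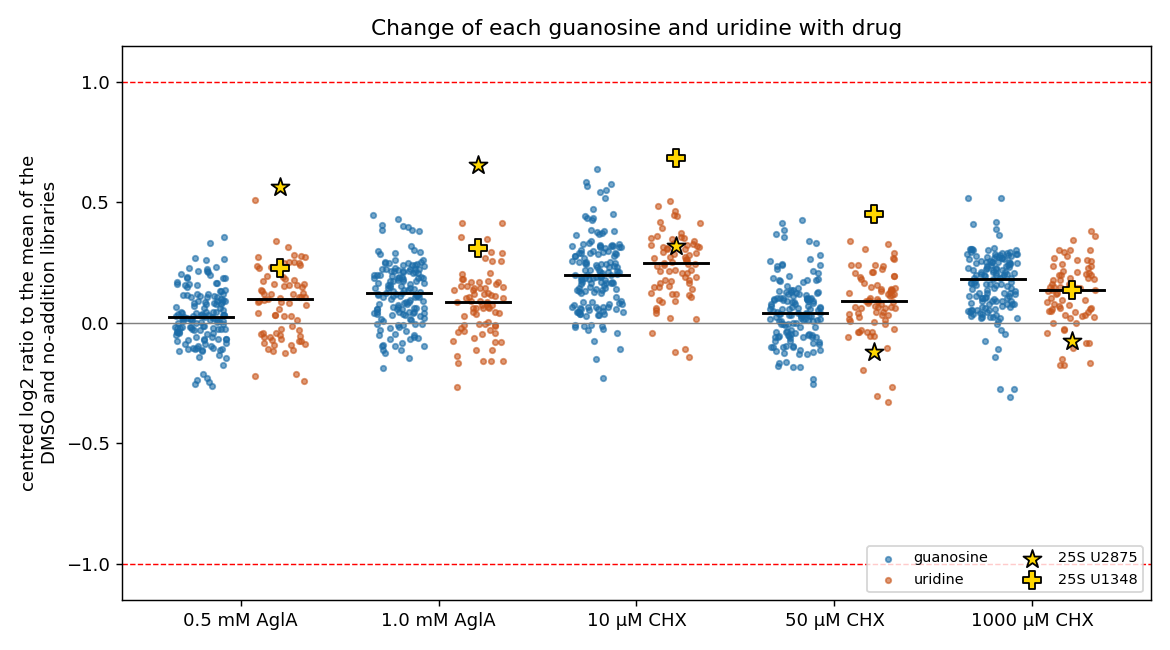
Centred log2 ratio of each drug library to the mean of the DMSO and no-addition libraries, 1 point per nucleotide, guanosines blue and uridines orange, with medians as black bars and the 2-fold limits as dashed red lines at -1 and 1. No point reaches a limit, 25S U2875 (star) is the highest at both AglA doses, 0.57 and 0.66, and 25S U1348 (plus sign) at 10 µM CHX, 0.68.

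Between DMSO and no addition most guanosines of the set were lower with DMSO, while its uridines were split. Without centring, 123 of the 147 guanosines had a lower rate with DMSO than with no addition (median log2 ratio -0.14), while 38 uridines were lower and 39 higher (median 0.01). The other 1300 guanosines, outside the set, behaved likewise, with 1064 higher in the no-addition library, and of the other 1360 uridines 936 were. The median ratio on the same scale was -0.01 in the reactive A and C and -0.06 in the 354 A and C of 0.2% to 0.5%. Of these 354, 232 were lower with DMSO. The guanosines were lower than both classes, and nearer to the A and C of matching rate. The size went with the level without DMS: the median ratio was -0.30 in the 40 guanosines with at least 0.1% there, 38 of which were lower with DMSO, and -0.08 in the other 107. A difference shared by many nucleotides of 2 single libraries cannot be told apart from a difference between those libraries.

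The single nucleotides that moved most with DMSO were 18S G671, with 0.320% with no addition and 0.168% with DMSO, and 25S G176, with 0.368% and 0.189%. Both were past 1.5-fold and below 2-fold, 2 of 224 (0.893%) against a background of 1.4% (17 of 1216), and the drug libraries of G671 held 0.156% to 0.230%, all below the no-addition library. In the other direction 25S U2067, in domain IV, was at 0.325% with no addition and at 0.474% with DMSO, while its highest value, 0.559%, was with 0.5 mM AglA.

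Against DMSO, 117 of the 147 guanosines were higher with 1.0 mM AglA (uncentred median log2 ratio 0.10) and 81 with 0.5 mM (median 0.02). Against no addition, 63 and 31 of them were higher. The direction for guanosines therefore differed with the control library, and the 2 AglA comparisons share the DMSO library with the comparison of DMSO and no addition. Uridines were split with 1.0 mM AglA, 38 higher and 39 lower than DMSO, with a median of -0.01. Of the 1360 uridines outside the set, 953 were higher than DMSO, with a median of 0.06.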

How the data were processed

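The deposited table gives 1 mutation rate per rRNA nucleotide and library, a fraction that the authors computed from reads and that is printed here as a percent. Per the labels' protocols, rRNA was fragmented and size-selected, copied with TGIRT-III, and only full-length cDNA was kept, circularised and amplified by PCR. The tools cutadapt and Bowtie2 and the build sacCer3 are named, without roles or versions, in the submitters' processing notes. The sources used here do not state filters, minimum depth or removal of PCR copies, so the precision of low rates is unknown. Low rates also hold sequencing and copying errors, which the library without DMS measures.

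From these rates the members, neighbours, runs and ratios were computed with Python 3.11.15, numpy 2.4.6, pandas 2.3.3 and scipy 1.17.1, and drawn with matplotlib 3.10.9. Libraries were assigned by title. Ratios used log2(rate + 0.001), centred on reactive A and C. No test was made, because each condition has 1 library. The 2-fold rule was tested on simulated data. A further 6 empty columns of the table were not used.

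The members, lists, regions and motifs were chosen with earlier results of these data known. Named nucleotides were the 10 guanosines and 10 uridines of highest mean rate, every member in a list, in 5.8S or in 5S, those beside each threshold, those past 2-fold and the longest runs; others named were selected after their values were seen. Alternatives were other bounds, constants, centrings, control libraries, neighbour distances and fold limits, subtraction of the rate without DMS, and leaving out each library.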

Additional observations from a re-analysis of the deposited data

Results flagged for a closer look

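In 3 nucleotides both AglA libraries moved one way and all 3 CHX libraries the opposite way against both libraries without drug, on the centred scale: lower with AglA and higher with CHX. The mean log2 of the AglA libraries minus that of the CHX libraries was -0.26 at 18S U494, -0.24 at 18S G1695 and -0.22 at 25S U2268. The difference was not tested. In the background 28 of 1216 nucleotides did the same. Rates of 18S U494 were 0.330% with no addition, 0.328% with DMSO, 0.289% and 0.289% with AglA, and 0.305%, 0.325% and 0.324% with CHX, so the uncentred CHX rates were not above those without drug. Without centring none of the 3 kept the pattern, and 9 other members were higher with AglA and lower with CHX, where the background held 57 of 1216.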

How the results depend on the processing

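The set itself follows its bounds: it held 828 nucleotides with a mean bound of 0.1%, 27 with 0.5%, and 125 when the rate without DMS was subtracted first, and guanosines made up 74.6% and 74.1% at the first 2 of these. It stayed within 1.5 times of 224 with other bounds without DMS (181 and 275), with every DMS library required to pass (161), and with each DMS library left out in turn (217 to 234). The share with a reactive neighbour was 42.9% with a neighbour bound of 0.2%, 15.2% with 2%, 46.4% within 2 nucleotides and 55.8% within 3, against 29.3%, 6.28%, 28.5% and 38.9% of the other G and U, so it was the higher under each. Past the fold limit were 2 members for DMSO with the rate without DMS subtracted (18S G1466 and 25S G176; background 13 of 1216) and 2 at 1.5-fold (17 of 1216), and 1 member at 1.5-fold for 10 µM CHX (25S U1348; 5 of 1216) and for 1.0 mM AglA against 1000 µM CHX (25S U2875; 19 of 1216). With a constant of 0.0001 and a 1.5-fold limit together, chosen after seeing the data, the counts were 9 for DMSO, 1 for 1.0 mM AglA (25S U2875), 5 for 10 µM CHX, 1 for 1000 µM CHX (25S G143), 1 for AglA against CHX, and 0 for 0.5 mM AglA and 50 µM CHX, where the background of 1216 had 33, 7, 20, 3, 25, 3 and 3. Under the other constants, centrings and single controls tried, all drug counts stayed at 0. The cause of these changes was not tested. No paired analysis was possible because each condition has 1 library. Depth is unknown, so changes in rates near 0.2% may lie within counting error.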
